A study of Mus musculus with 6 samples.

Results

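Blood vessels of the adult hippocampus were described through 35 marker genes, 22 of endothelial cells, which line the vessels, and 13 of mural cells, the pericytes and smooth muscle cells around them. The members were chosen by name as known markers, and 34 of the 35, out of 19938 genes measured, had a probe set (the group of array probes that reports one gene) annotated with that gene alone. The exception was Ly6c1, an endothelial surface protein whose probe sets are shared with Ly6c2, and no value is given for it.

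Expression was measured on Affymetrix gene arrays in whole hippocampus of male C57Bl/6J mice at 70 days of age, to ask which transcripts differ in adults after ethanol in the first week of life. As pups the ethanol mice had received ethanol at 2.5 g/kg, dissolved in saline (0.15 M), and the saline mice the saline alone, in both cases as 2 injections under the skin on postnatal day 4 and again on day 7. Pups of both groups came from the same litters and were matched for sex and weight. Each array held RNA pooled from 3 males of different litters, with 3 arrays and 9 mice per group, so the spread between arrays is a spread between pools and hides that between single mice.

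Brain capillaries differ from those of most other organs. Their endothelial cells are sealed by tight junctions, carry little across in vesicles, and move glucose, lipids and drugs through dedicated transporters, which together form the blood-brain barrier. Pericytes share a basement membrane with them and maintain the barrier, and smooth muscle cells wrap the arteries and arterioles and set their width.

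Values are log2 expression levels, so a difference of 1 is a doubling, and each difference is the ethanol mean minus the saline mean. Array medians lay between 5.842 and 5.893, and the arrays correlated with one another at 0.9971 to 0.9979 over all probe sets. A level of 5.36, under which 95% of olfactory and vomeronasal receptor genes lay, was taken as a guide to background. Of the 34 measured members, 30 lay above it, and Sox17, Higd1b, Tagln and Cnn1 lay at or below it. In whole tissue, fewer vessel cells and less RNA per vessel cell cannot be told apart.

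None of the 34 members passed the test between ethanol and saline. With limma, 0 of 23410 probe sets passed an adjusted p under 0.05 after Benjamini-Hochberg (0%), while 1202 passed before adjustment. At an unadjusted p under 0.05, 0 of 21 endothelial and 0 of 13 mural genes passed, beside 1040 of 19938 genes (5.22%), and the methods' t-test also called 0 members. The 3 ethanol and 3 saline pools overlapped in every member, and they did not overlap in 10.4% of all genes. With 3 pools against 3 and no difference, such separation has a probability of 0.1, so the 10.4% is near that rate. At a looser unadjusted p under 0.1, 1 endothelial gene (Esam) and 1 mural gene (Acta2) passed, beside 2119 of all 19938 genes (10.6%).

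The intervals around these differences were narrow. The 95% interval lay within 1.2-fold in either direction for 20 of 21 endothelial genes (95.2%) and 12 of 13 mural genes (92.3%), close to the 92.0% of all genes. Esam and Acta2 were the exceptions. The genes within 1.2-fold include Sox17, Higd1b, Tagln and Cnn1, which lay at the level of the receptor genes and may carry no signal. Over the members the lowest bound was 0.823-fold and the highest 1.24-fold. The median difference was -0.02 for the endothelial genes, between -0.13 and 0.09, and -0.02 for the mural genes, between -0.10 and 0.15, against 0.00 over all genes. In size alone the median difference was 0.0512 in endothelial and 0.033 in mural genes, against 0.0368 over all genes.

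**Figure D1:**
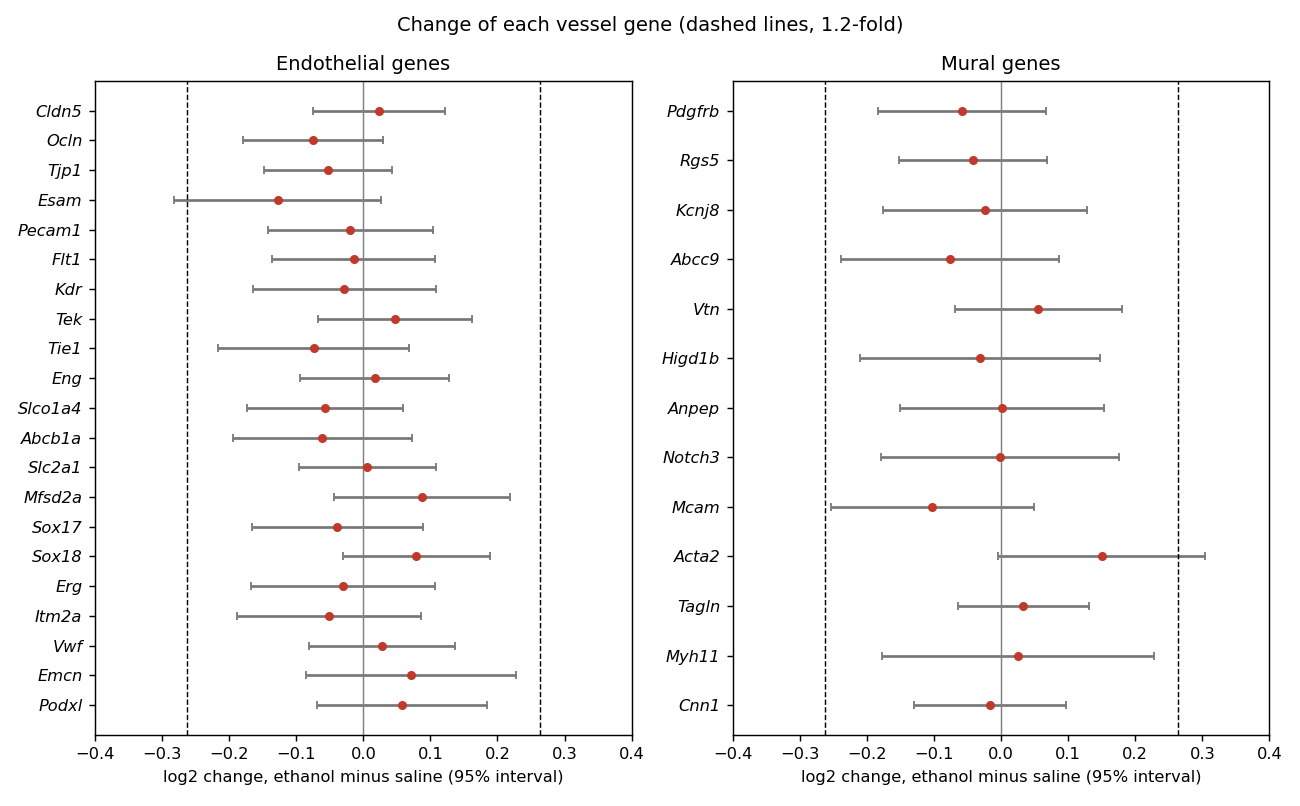
Log2 difference of each measured member, ethanol minus saline, as a point with its 95% interval, with endothelial and mural genes in separate blocks. The points lie between -0.13 (Esam) and 0.15 (Acta2), and every interval crosses 0.

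Tight junction and adhesion genes held the endothelial member with the lowest difference. Esam, an adhesion molecule at endothelial contacts, measured 7.29, 7.29 and 7.41 in the ethanol pools and 7.42, 7.60 and 7.36 in the saline pools. The difference was -0.13 ± 0.07 (SE; limma, adjusted p = 0.931), and its interval ran from 0.823-fold to 1.02-fold. Saline pool 2 stood above the other 5 pools, and ethanol pool 3 lay above saline pool 3.

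Ocln encodes occludin, a membrane protein of the tight junction. It measured 8.38, 8.28 and 8.24 in the ethanol pools and 8.37, 8.38 and 8.38 in the saline pools, a difference of -0.07 ± 0.05 (SE). The saline pools were nearly equal, and ethanol pool 1 was level with them while the other 2 ethanol pools were lower.

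Cldn5 encodes claudin-5, the main sealing protein of brain endothelial junctions. Its levels of 9.51, 9.49 and 9.59 in the ethanol pools and 9.47, 9.53 and 9.52 in the saline pools differed by 0.02 ± 0.04 (SE), with an interval from 0.950-fold to 1.09-fold. Tjp1, the scaffold protein ZO-1 beneath the junction, measured 9.60, 9.54 and 9.52 in the ethanol pools and 9.64, 9.58 and 9.60 in the saline pools. That is a difference of -0.05 ± 0.04 (SE), smaller than the range of the ethanol pools. Pecam1, the adhesion molecule CD31, differed by -0.02 ± 0.05 (SE).

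Receptors for vessel growth factors had a median difference of -0.01, and ethanol pool 3 held the lowest value in 4 of the 5. Flt1 and Kdr encode the VEGF receptors 1 and 2, Tek and Tie1 the angiopoietin receptor and its partner, and Eng encodes endoglin, a co-receptor for TGF-beta family ligands. The promoters of 3 of them are shown because ETS transcription factors such as Erg, itself a member, are known to drive many endothelial genes and bind a short core of letters. Each runs from 250 bases before to 50 bases after the annotated start, 5′ to 3′ on the gene's own strand (RefSeq, GRCm38.p6). Capitals mark the cores AGGAAG and CGGAAG, or their reverse complements CTTCCT and CTTCCG.
Eng, chr2:32646345-32646644, plus strand: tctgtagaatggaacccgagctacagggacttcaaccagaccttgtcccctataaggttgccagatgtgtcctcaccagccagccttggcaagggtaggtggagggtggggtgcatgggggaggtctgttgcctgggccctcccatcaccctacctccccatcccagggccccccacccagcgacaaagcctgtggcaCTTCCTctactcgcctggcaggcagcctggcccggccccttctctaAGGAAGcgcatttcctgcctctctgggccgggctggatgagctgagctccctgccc
Tie1, chr4:118489800-118490099, minus strand: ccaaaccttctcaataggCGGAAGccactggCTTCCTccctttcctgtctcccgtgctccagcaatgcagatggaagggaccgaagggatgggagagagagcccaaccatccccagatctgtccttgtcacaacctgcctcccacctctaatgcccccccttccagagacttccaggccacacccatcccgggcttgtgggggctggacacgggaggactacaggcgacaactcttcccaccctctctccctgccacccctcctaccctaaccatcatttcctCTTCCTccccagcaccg
Flt1, chr5:147725962-147726261, minus strand: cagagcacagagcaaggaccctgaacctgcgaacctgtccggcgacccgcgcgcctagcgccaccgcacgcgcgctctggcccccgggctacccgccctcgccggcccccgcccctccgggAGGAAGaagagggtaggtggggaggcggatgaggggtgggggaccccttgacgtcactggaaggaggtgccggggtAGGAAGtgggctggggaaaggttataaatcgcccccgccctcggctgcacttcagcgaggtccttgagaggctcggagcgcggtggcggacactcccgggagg

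Counted from the start, the first base of a core lies at -52 and -6 in Eng, at -129 and -53 in Flt1, and at -232, -219 and 34 in Tie1. The promoters of Kdr and Tek hold neither core. Over the endothelial members 10 of 20 promoters from 16 genes held one or the other (50%), and over the mural members 0 of 9 promoters did, against 15265 of all 32851 promoters (46.5%). Such a match is a description of the letters and not evidence of binding.

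Flt1 measured 9.01, 8.98 and 8.86 in the ethanol pools and 9.03, 8.96 and 8.92 in the saline pools, a difference of -0.01 ± 0.05 (SE) with an interval from 0.910-fold to 1.08-fold. Ethanol pool 3 was the lowest, and the other 2 ethanol pools lay within the saline range.

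In Kdr the levels were 6.61, 6.61 and 6.41 in the ethanol pools and 6.60, 6.54 and 6.58 in the saline pools, a difference of -0.03 ± 0.06 (SE). Ethanol pool 3 was the lowest of the 6, while the other 2 ethanol pools lay above every saline pool. Tie1 measured 6.47, 6.44 and 6.31 in the ethanol pools and 6.41, 6.59 and 6.44 in the saline pools, and differed by -0.07 ± 0.06 (SE). Here too ethanol pool 3 was the lowest, and saline pool 2 was the highest.

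Eng and Tek differed by 0.02 ± 0.05 and 0.05 ± 0.05 (SE). Eng was again lowest in ethanol pool 3, at 8.25, against 8.35 and 8.36 in the other ethanol pools and 8.27, 8.36 and 8.27 in the saline pools. Tek was lowest in saline pool 3.

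Transporters of the blood-brain barrier had a median difference of -0.03. Slc2a1 encodes GLUT1, which carries glucose into the brain and is also made by astrocytes. It measured 10.95, 10.92 and 10.94 in the ethanol pools and 10.86, 11.00 and 10.93 in the saline pools. The ethanol pools all fell inside the saline range, and the difference was 0.01 ± 0.04 (SE), with an interval from 0.935-fold to 1.08-fold.

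Mfsd2a carries lysophospholipids with omega-3 fatty acids into the brain and restrains vesicle transport across the endothelium. At 9.77, 9.93 and 9.87 in the ethanol pools and 9.78, 9.85 and 9.68 in the saline pools, it had the highest difference of the endothelial genes, 0.09 ± 0.06 (SE; limma, adjusted p = 0.932). Ethanol pool 1 lay within the saline range and the other 2 ethanol pools above it, and the interval ran from 0.970-fold to 1.16-fold. Slco1a4, which takes up organic anions, and Abcb1a, the drug efflux pump P-glycoprotein, differed by -0.06 ± 0.05 and -0.06 ± 0.06 (SE), and both were lowest in ethanol pool 3.

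Among the transcription factors, Sox18 belongs with Sox17 to the SoxF family that guides endothelial fate, and Erg maintains endothelial identity. Sox18 measured 6.69, 6.60 and 6.69 in the ethanol pools and 6.51, 6.63 and 6.61 in the saline pools, a difference of 0.08 ± 0.05 (SE). Only saline pool 1 stood apart, below the other pools. Erg differed by -0.03 ± 0.06 (SE), and Sox17, which lay at the level of the receptor genes, by -0.04 ± 0.06 (SE).

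Of the remaining surface and secreted proteins, Itm2a is a membrane protein rich in brain endothelium. Its levels were 10.08, 9.95 and 10.04 in the ethanol pools and 9.96, 10.13 and 10.14 in the saline pools, a difference of -0.05 ± 0.06 (SE), with the lowest value in an ethanol pool and the next in a saline pool. Emcn (endomucin, a sialomucin of veins and capillaries), Podxl (podocalyxin, a sialomucin of the luminal surface) and Vwf (von Willebrand factor, which tethers platelets) differed by 0.07 ± 0.07, 0.06 ± 0.06 and 0.03 ± 0.05 (SE).

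Pericyte markers had a median difference of -0.03. Vtn, which encodes vitronectin, a matrix protein that pericytes secrete, measured 10.37, 10.29 and 10.48 in the ethanol pools and 10.29, 10.34 and 10.35 in the saline pools. Its difference was 0.06 ± 0.05 (SE), and ethanol pool 3, the lowest pool for many members, was its highest. Pdgfrb, the PDGF receptor that draws pericytes to vessels, measured 8.54, 8.47 and 8.44 in the ethanol pools and 8.57, 8.44 and 8.62 in the saline pools. The lowest ethanol and saline values were equal to 2 decimals, and the difference was -0.06 ± 0.05 (SE), with an interval from 0.881-fold to 1.05-fold.

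Rgs5, a regulator of G protein signalling, differed by -0.04 ± 0.05 (SE). Kcnj8 and Abcc9 encode the pore and the sulphonylurea receptor of one potassium channel that senses the energy state of the cell, and they differed by -0.02 ± 0.07 and -0.08 ± 0.07 (SE). Mcam, the adhesion molecule CD146, had the lowest difference of the mural genes, -0.10 ± 0.07 (SE). Its levels were 8.72, 8.49 and 8.72 in the ethanol pools and 8.76, 8.69 and 8.79 in the saline pools, so ethanol pool 2 carried most of the gap. Anpep (aminopeptidase N), Notch3 (a Notch receptor of mural cells) and Higd1b (a pericyte-enriched mitochondrial protein, here at the level of the receptor genes) differed by 0.00 ± 0.07, 0.00 ± 0.08 and -0.03 ± 0.08 (SE).

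Smooth muscle genes held the largest difference of all members. Acta2 encodes smooth muscle actin and measured 9.04, 8.96 and 9.02 in the ethanol pools and 8.71, 8.98 and 8.89 in the saline pools. The difference was 0.15 ± 0.07 (SE; limma, unadjusted p = 0.0562, adjusted p = 0.931), with an interval from 0.997-fold to 1.24-fold. Saline pool 1 was well below the other 5 pools, and saline pool 2 lay above ethanol pool 2. Acta2 passed the unadjusted threshold after median centring of the arrays, after quantile normalization and with an intensity trend, at differences of 0.15, 0.16 and 0.15, and without saline pool 2, at 0.21. It did not pass in the other alternatives, the methods' t-test among them, and without saline pool 1 its difference was 0.07.

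Differences of the other contractile genes were smaller in size. Myh11, the myosin heavy chain of smooth muscle, measured 5.90, 5.86 and 5.53 in the ethanol pools and 5.74, 5.76 and 5.72 in the saline pools, a difference of 0.03 ± 0.09 (SE). The ethanol pools spread widely (SD 0.204) and the saline pools hardly at all (SD 0.0224), with ethanol pool 3 lowest and the other 2 ethanol pools above every saline pool. Leaving out ethanol pool 3 gave a difference of 0.14 (limma, unadjusted p = 0.0118), a setting in which 4.47% of all genes passed. Leaving out ethanol pool 1 or ethanol pool 2 instead turned the difference to -0.04 and -0.02. Tagln, the actin-binding protein transgelin, and Cnn1, calponin, lay at the level of the receptor genes and differed by 0.03 ± 0.04 and -0.02 ± 0.05 (SE).

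**Figure D2:**
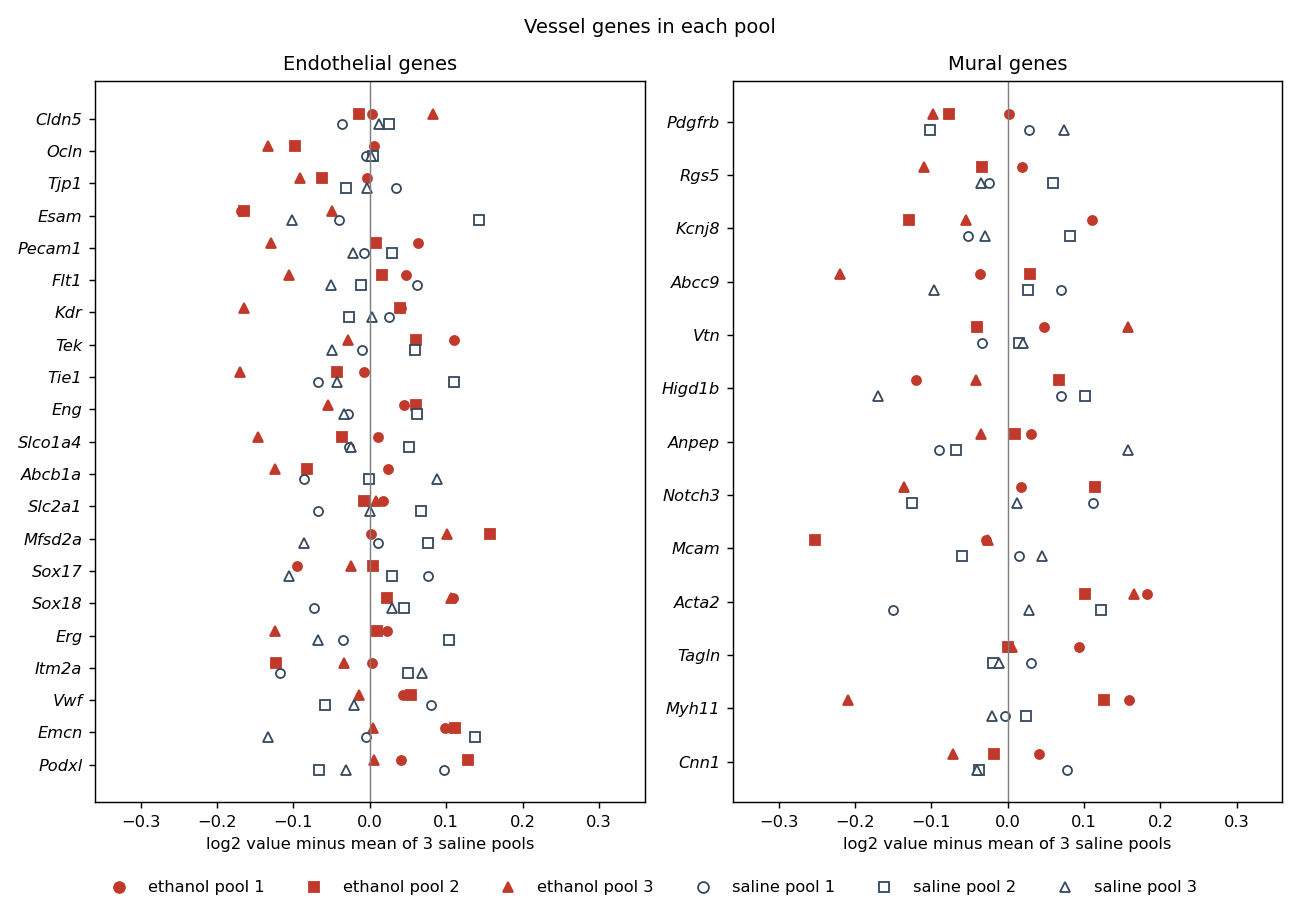
Each measured member by pool, drawn as its log2 level minus the saline mean of that gene, with ethanol and saline pools marked apart and endothelial and mural genes in separate blocks. Ethanol and saline pools overlap in all 34 genes.

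One pool stood lower than the rest across many members. Ethanol pool 3 held the lowest of the 6 values in 10 of 21 endothelial genes (47.6%) and 5 of 13 mural genes (38.5%). Over all 19938 genes it was lowest in 3661 (18.4%). The members are no independent observations, since all were read in the same 6 pools. After quantile normalization ethanol pool 3 was lowest in 10 endothelial and 6 mural genes, against 22.2% of all genes. After median centring it was lowest in 10 and 5, against 19.9% of all genes. In the 124 further vessel genes read by list, 27 were lowest in ethanol pool 3 (21.8%) and 37 in saline pool 1 (29.8%). Over all genes each of these pools was lowest in 18.4%. Ethanol pool 1 was lowest in 1 endothelial and 0 mural genes, against 14.7% of all genes. Saline pool 2 held the highest value in 7 endothelial genes (33.3%), against 17.1% of all genes. A single low pool was not particular to the members. Among markers of other cells, read below, ethanol pool 2 was lowest in 100% of 11 oligodendrocyte and 75.0% of 16 choroid plexus markers. It was lowest in 16.4% of all genes. In the 12 neuron markers no pool was lowest in more than 33.3%.

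By role the same pool stood out unevenly. Set against the saline mean, the receptor genes averaged 0.047, 0.026 and -0.105 in the ethanol pools and -0.004, 0.038 and -0.035 in the saline pools. Junction genes averaged -0.020, -0.066 and -0.064 in the ethanol pools and -0.011, 0.034 and -0.023 in the saline pools. Smooth muscle genes averaged 0.119, 0.052 and -0.027 in the ethanol pools and -0.011, 0.023 and -0.011 in the saline pools, so ethanol pools 1 and 2 were above and ethanol pool 3 below. Pericyte genes averaged 0.004, -0.035 and -0.063 in the ethanol pools and 0.010, -0.008 and -0.003 in the saline pools.

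**Figure D3:**
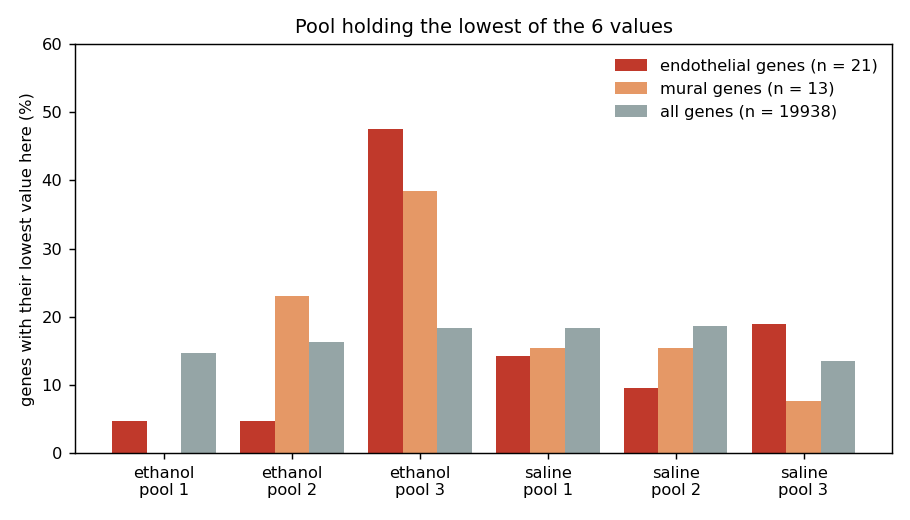
Share of genes, in percent, whose lowest value of the 6 lay in each pool, for endothelial genes, mural genes and all genes. Ethanol pool 3 held the lowest value in 47.6% of endothelial and 38.5% of mural genes, against 18.4% of all genes.

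Averaged over its genes, the endothelial list lay at 8.087 ± 0.0372 in the ethanol pools and 8.097 ± 0.0338 in the saline pools, and the mural list at 6.938 ± 0.0457 in the ethanol pools and 6.945 ± 0.0047 in the saline pools (SD, n = 3 each). Both differences were smaller than the spread between ethanol pools. Relative to the saline mean, the endothelial list was 0.020, 0.002 and -0.052 in the ethanol pools and -0.011, 0.038 and -0.027 in the saline pools.

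Around these markers, 8 further lists of vessel genes were read in the same way, 128 genes in all, of which 124 were measured. They cover growth factors and other ligands, Wnt signalling of the barrier, further junction proteins and transporters, leukocyte adhesion, basement membrane, other mural genes, and artery and vein markers. At an unadjusted p under 0.05, 3 were higher and 4 lower with ethanol, against 5.22% of all genes, and their median difference was 0.00. None had an adjusted p under 0.931 (limma), so each of the 7 is described by its values. All but Cav2 failed the unadjusted threshold when at least 1 single pool was left out.

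Among ligands 1 of 28 passed. Vegfa, the main growth factor of vessels, measured 8.20, 8.29 and 8.42 in the ethanol pools and 8.54, 8.39 and 8.46 in the saline pools, a difference of -0.16 ± 0.06 (SE). The pools overlapped, since ethanol pool 3 lay above saline pool 2.

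In the Wnt list 1 of 13 passed, Lef1, a transcription factor at the end of the pathway in barrier endothelium that is also a marker of thalamus. It measured 6.33, 6.12 and 5.89 in the ethanol pools and 5.92, 5.78 and 5.82 in the saline pools, a difference of 0.27 ± 0.10 (SE). Thalamus markers, a list that includes Lef1 itself, were also highest in ethanol pool 1 and next in ethanol pool 2. Their part in this value was not tested. Ctnnb1, which encodes beta-catenin, and Lrp6, a Wnt co-receptor, differed by 0.01 ± 0.04 and 0.04 ± 0.06 (SE).

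Of 14 further junction genes, F11r was higher and Cav2 lower. F11r encodes the junctional adhesion molecule A and measured 7.60, 7.22 and 7.43 in the ethanol pools and 7.17, 7.19 and 7.26 in the saline pools, a difference of 0.21 ± 0.09 (SE). Ethanol pools 1 and 3 and then saline pool 3 were the highest, the same order as in the choroid plexus markers, whose part in this value was not tested. Cav2, caveolin-2, a coat protein of the membrane pits called caveolae, had 8.64, 8.67 and 8.70 in the ethanol pools and 8.79, 8.78 and 8.79 in the saline pools. That difference, -0.12 ± 0.04 (SE), left the groups without overlap. Cav1, which encodes caveolin-1 and is in the same list, differed by -0.01 ± 0.05 (SE), and its pools overlapped.

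Tfrc, the transferrin receptor that brings iron across the barrier, was the 1 of 17 further transporter genes that passed. It measured 9.44, 9.47 and 9.37 in the ethanol pools and 9.52, 9.61 and 9.53 in the saline pools, a difference of -0.12 ± 0.04 (SE), with every ethanol pool below every saline pool. Of 25 other mural genes, S1pr3, a sphingosine 1-phosphate receptor, measured 7.12, 7.19 and 7.11 in the ethanol pools and 7.24, 7.24 and 7.29 in the saline pools, a difference of -0.11 ± 0.04 (SE). Pln, phospholamban, a regulator of the calcium pump, was higher by 0.15 ± 0.06 (SE) at the level of the receptor genes.

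No gene passed among leukocyte adhesion (6 measured), basement membrane (12) and artery and vein genes (12). Cd34, a sialomucin of endothelial surfaces, differed by -0.10 ± 0.04 (SE), and Selplg, the selectin ligand of leukocytes, by 0.02 ± 0.06 (SE). Sparc, a matrix protein, differed by 0.06 ± 0.05 and Itgb1, the beta-1 integrin, by 0.09 ± 0.04 (SE). Of the 124 genes, 12 had pools that did not overlap, against 10.4% of all genes.

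Markers of other tissue differed between these pools and were read beside the vessel genes. Choroid plexus markers averaged 1.022, -0.263 and 0.627 in the ethanol pools and -0.164, -0.013 and 0.177 in the saline pools, relative to the saline mean, and 3 of 16 were higher at the unadjusted threshold. Thalamus markers averaged 0.739, 0.280 and 0.119 in the ethanol pools and 0.018, -0.006 and -0.012 in the saline pools. Of these 16 markers, 11 were higher. The list includes Lef1, and also Tcf7l2 and Synpo2, which the authors had reported as higher on these same arrays. Its mean and count are therefore partly drawn from genes already known to differ.

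Ethanol pool 3, which held the lowest value in 15 of the 34 members, was second highest for choroid plexus markers. Ethanol pool 1, the highest for those markers, held the lowest value in 1 of the 34 members and the highest in 9. Meningeal markers averaged 0.242, -0.113 and 0.198 in the ethanol pools and -0.070, -0.048 and 0.117 in the saline pools, with 0 of 15 past the threshold. Microglia (0 of 11), astrocyte (0 of 12) and neuron markers (0 of 12) gave none, and neither did red blood cell markers (0 of 2). Only those 2 of the 10 listed red blood cell genes were measured. Of 11 oligodendrocyte markers 4 were lower, and of 7 perivascular macrophage markers 1 was higher, Pf4. Pf4 was among the 6 macrophage markers that lay at the level of the receptor genes. Of all 19938 genes, 559 were higher and 481 lower at the same threshold. The part of these tissues in the vessel values was not tested.

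**Figure D4:**
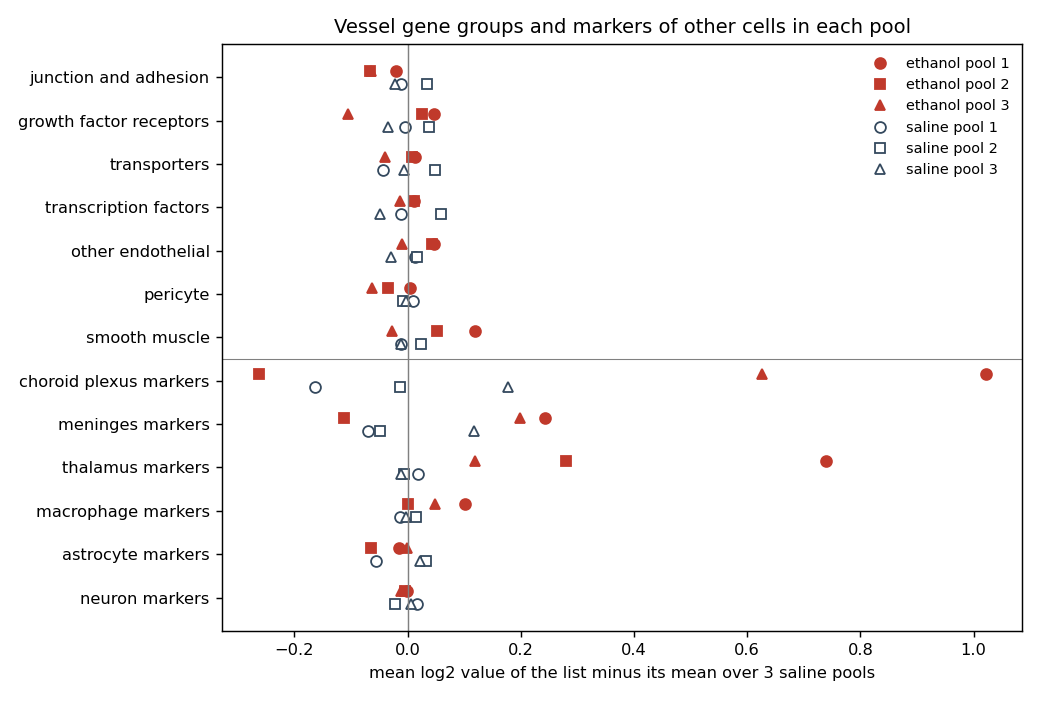
Mean log2 difference from the saline mean over the genes of each list, by pool. The lists are the role groups of the endothelial and mural members, and markers of other cells and tissues. The means of the endothelial role groups lie between -0.105 and 0.059, whereas choroid plexus means reach 1.022 in ethanol pool 1.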

How the data were processed

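Total RNA from hippocampus was hybridized to Affymetrix gene arrays. The authors summarized probes to genes with RMA and deposited log2 expression levels, which were used as they stand. Which RMA software was run, and on which genome build the arrays were annotated, is not given in the sources used here. Of 35556 probe sets, 21789 have 1 gene symbol in the platform annotation, 1621 several and 12146 none, and for a gene with several probe sets the brightest was used. RefSeq (GRCm38.p6) supplied current names (99.6% of gene identifiers found) and promoters, which 25 members had.

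Ethanol was compared with saline with limma 3.58.1 in R 4.3.3 (lmFit and eBayes, two-sided, no covariate) over all 23410 probe sets with a symbol, and p was adjusted over them by the Benjamini-Hochberg method. Exact permutation of 3 pools against 3 cannot give a p under 0.1 and was not used. Intervals are 95% intervals of the moderated test. The procedure was run on simulated data as a check. How often it recovers differences as small as those of the members is not given here. Figures were drawn with matplotlib 3.10.9.

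All members are named, with values by pool for those past an unadjusted p of 0.05 and for the brightest of each role, and for others where the text describes their pools, chosen after their values were seen. In the further lists up to 4 genes past that threshold, or the 2 brightest where fewer than 2 pass, were eligible. Cav1 was added to these beside Cav2 after its value was seen. Members and lists were chosen with earlier results of these data known. Alternatives were other normalizations, filters, array weights, the methods' t-test, a replicate block and leaving out each pool.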

Additional observations from a re-analysis of the deposited data

How the results depend on the processing

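At the adjusted threshold 0 members passed in every alternative. At the unadjusted threshold the mural count was 1 with an intensity trend, 1 after median centring and 1 after quantile normalization (Acta2 each time), and at p under 0.1 the endothelial and mural counts were 1 and 1, beside 10.6% of all genes. Leaving out each pool gave 0 to 1 endothelial and 0 to 1 mural genes. Of 560 member values under alternatives, 8 passed and, to 2 decimals, 20 had the opposite sign, not counting Anpep and Notch3, whose differences were 0.00 in the main analysis. Array weights turned Flt1 to 0.02, Higd1b to 0.04 and Cnn1 to 0.01, and gave -0.06 for Anpep and 0.01 for Notch3. Leaving out each pool gave Anpep -0.04 to 0.08, Notch3 -0.06 to 0.07, Cldn5 -0.01 to 0.04, Cnn1 -0.05 to 0.02, Eng -0.01 to 0.05, Erg -0.06 to 0.02, Flt1 -0.05 to 0.03, Higd1b -0.12 to 0.02, Kcnj8 -0.09 to 0.03, Kdr -0.06 to 0.04, Myh11 -0.04 to 0.14, Pecam1 -0.06 to 0.04 and Slc2a1 -0.03 to 0.04. Ocln passed without ethanol pool 1 (-0.12), Emcn without saline pool 2 (0.14) and Esam without saline pool 3 (-0.18), but Ocln was -0.05 without ethanol pool 3, Emcn 0.00 without saline pool 3 and Esam -0.06 without saline pool 2. Acta2 lay between 0.07 without saline pool 1 and 0.21 without saline pool 2. For the further vessel genes, alternatives chosen after seeing the data gave 13 passing genes with array weights (beside 7.71% of all genes) and 5 to 17 without single pools, with 17 without ethanol pool 2 (5.77% of all genes) and 12 without saline pool 1 (6.31%), against 7 in the main analysis (5.22%). Vegfa, Lef1, F11r and Pln did not pass the methods' t-test, which called 5 further vessel genes and 0 members. Cav2 passed all 17 alternatives. Calls were lost without ethanol pool 1 (Vegfa -0.11, Lef1 0.16, F11r 0.12, S1pr3 -0.11, Pln 0.10), ethanol pool 2 (Vegfa -0.15, Lef1 0.27), ethanol pool 3 (F11r 0.20, Tfrc -0.09, S1pr3 -0.10), saline pool 1 (Vegfa -0.12, F11r 0.19, Pln 0.12), saline pool 2 (Lef1 0.24, F11r 0.20, Tfrc -0.10, Pln 0.15) and saline pool 3 (Vegfa -0.16, Lef1 0.26, S1pr3 -0.10). With a replicate block on the pool numbers, 0 endothelial, 0 mural and 8 further genes passed. Same-numbered pools deviated together at r = -0.0488, -0.022 and 0.0588, and no ethanol pool correlated best with the saline pool of its own number. With only 3 pools per group, these values cannot decide whether the numbers pair the pools. The median SE of a log2 difference was 0.049, and pooling hides single mice. The 4 members at the level of receptor genes may carry no signal.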
